A study of Mus musculus with 12 samples.

Results

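The Id proteins and the E proteins form one regulatory circuit, and 6 of its genes are described here in mouse bone marrow natural killer (NK) cells: the Id genes Id2, Id1 and Id3 and the E protein genes Tcf3, Tcf4 and Tcf12. They were taken by name from both families, with earlier results of these data known, and are 6 of 37991 genes in the expression table. Id4, also an Id gene, is not among the 6 and is given below. All 6 were among the 12384 genes that reached 1 FPKM (fragments per kilobase, scaled to the mapped reads of each library) in at least 3 of 12 libraries and were tested.

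E proteins are basic helix-loop-helix transcription factors that pair with each other or with related factors and bind a short DNA motif, the E box. Id proteins have the helix-loop-helix but lack the basic region that contacts DNA, so an E protein paired with an Id protein cannot bind. In lymphocytes, E proteins drive B and T cell programs, and Id2 holds them in check in NK cells and other innate lymphoid cells. Despite their symbols, Tcf3 (protein E2A), Tcf4 (E2-2) and Tcf12 (HEB) are unrelated to Tcf7, which encodes TCF-1, an HMG box factor of the Wnt pathway.

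NK1.1+CD49b+ cells had been sorted from C57Bl/6 bone marrow in 4 groups of 3 libraries. DKO mice carried Ncr1Cre, Id2F/F and Tcf7F/F, Id2KO mice Ncr1Cre and Id2F/F, and Tcf1KO mice Ncr1Cre and Tcf7F/F. Ctrl mice had no Cre and were Id2F/F in the protocol text, with Id2F/F Tcf7F/F also named in the design text, and which Ctrl library had which genotype is not given in the sources used here. Ncr1Cre is expressed in cells that make the NK receptor NKp46, so deletion depends on Ncr1 activity, and Cre itself is present in all 3 targeted groups and absent from Ctrl. Age, sex and the floxed exons are not given. The samples are called independent, but nothing says that each came from a separate animal, so p-values measure only the spread between these samples.

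Depth ranged from 13975523 to 20208160 gene-assigned reads per library, as recovered from the FPKM values. All 10 NK markers were present in every library, with Klrb1c, which encodes NK1.1, at 52.6 to 85.5 FPKM. Ncr1, whose activity drives the Cre, was at 62.4 to 99.1 FPKM in DKO, 85.8 to 148 in Id2KO and 60.3 to 70.4 in Tcf1KO, against 168 to 204 in Ctrl, so all 9 Cre libraries lay below all Ctrl libraries. Markers of other cells also varied, given here as sums of FPKM that can be set between libraries only. The sum of 10 T cell markers, several of which NK cells also express, was 1850 to 2260 FPKM in DKO, 1293 to 1751 in Id2KO, 1413 to 1900 in Tcf1KO and 975 to 1158 in Ctrl. The sum of 10 neutrophil markers was 173 to 441 FPKM in DKO, 11.4 to 753 for the Id2KO libraries, 1058 to 3621 for Tcf1KO and 734 to 3142 for Ctrl. The sum of 10 erythroid markers was 452 to 2734 FPKM in DKO, 168 to 1929 for Id2KO, 1354 to 3557 for Tcf1KO and 772 to 4821 for Ctrl. Tcf7 was at 53.9, 60.04 and 73.3 FPKM in DKO, 81.5, 92.1 and 80.9 in Id2KO, 29.6, 37.3 and 38.0 in Tcf1KO, against 37.7, 38.6 and 46.5 in Ctrl. Gene totals can include exons outside a floxed segment, so these Tcf7 values do not check the Tcf7 genotypes, and no strand setting is stated, so antisense reads cannot be told apart.

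Id2 was the most abundant Id gene in Ctrl cells and was lowest in Id2KO, intermediate in DKO and high in Tcf1KO and Ctrl. The gene (ENSMUSG00000020644, chr12:25093799-25097140, minus strand, GRCm38) was at 48.8, 41.2 and 36.8 FPKM in the 3 DKO libraries, 17.8, 17.1 and 19.2 in Id2KO, 113.6, 102.5 and 125.7 in Tcf1KO, against 123.6, 162.9 and 170.0 in Ctrl. All 6 libraries with floxed Id2 and Cre lay below all 6 others, and all DKO libraries lay above all Id2KO libraries. Mean Id2 was 42.3 ± 6.09 FPKM in DKO, 18.0 ± 1.04 in Id2KO, 114 ± 11.6 in Tcf1KO and 152 ± 25.0 in Ctrl (SD, n = 3 each), which is 27.8% of the Ctrl mean in DKO, 11.9% in Id2KO and 74.9% in Tcf1KO. In bulk RNA, a few cells that kept full Id2 and many cells with less Id2 RNA each cannot be told apart.

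Id2 passed the test in 4 of the 5 comparisons between pairs of groups. Fold changes here are on the log2(FPKM + 1) scale, which understates changes of low genes, from limma's moderated test (two-sided, one fit to all 12 libraries), with Benjamini-Hochberg adjustment over the 12384 genes and a threshold of 0.05. Id2 fell by 3.00 in Id2KO against Ctrl (SE 0.16, limma adjusted p = 1.52e-05), by 1.82 in DKO against Ctrl (SE 0.16, adjusted p = 0.00269) and by 1.41 in DKO against Tcf1KO, where both groups carry Cre (SE 0.16, adjusted p = 0.0109). The mean of the changes in Id2KO against Ctrl and in DKO against Tcf1KO, called the Id2 effect below, was -2.20 (SE 0.11, adjusted p = 9.96e-06). Id2 was 1.18 higher in DKO than in Id2KO (SE 0.16, adjusted p = 0.0205), and the DKO mean was 2.34 times the Id2KO mean. That call was lost without any one of DKO replicates 1 and 2 and Id2KO replicates 1 and 2 (highest adjusted p = 0.123), and in the voom fit to recovered reads (adjusted p = 0.114), while the difference stayed between 1.07 and 1.27 over the 12 fits that each left out 1 library. The call in DKO against Tcf1KO was lost without DKO replicate 2 or 3 or any one Tcf1KO library (highest adjusted p = 0.0775).

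Tcf1KO and Ctrl were neighbours in the order of Id2 levels whose libraries overlapped. Their difference of -0.41 (95% interval -0.76 to -0.05) had an unadjusted p of 0.0275 and a limma adjusted p of 0.978. The interaction, which asks whether targeting Tcf7 as well changed Id2 differently in cells with and without targeted Id2, was 1.58 (SE 0.23, limma adjusted p = 0.085) and missed the threshold.

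**Figure D1:**
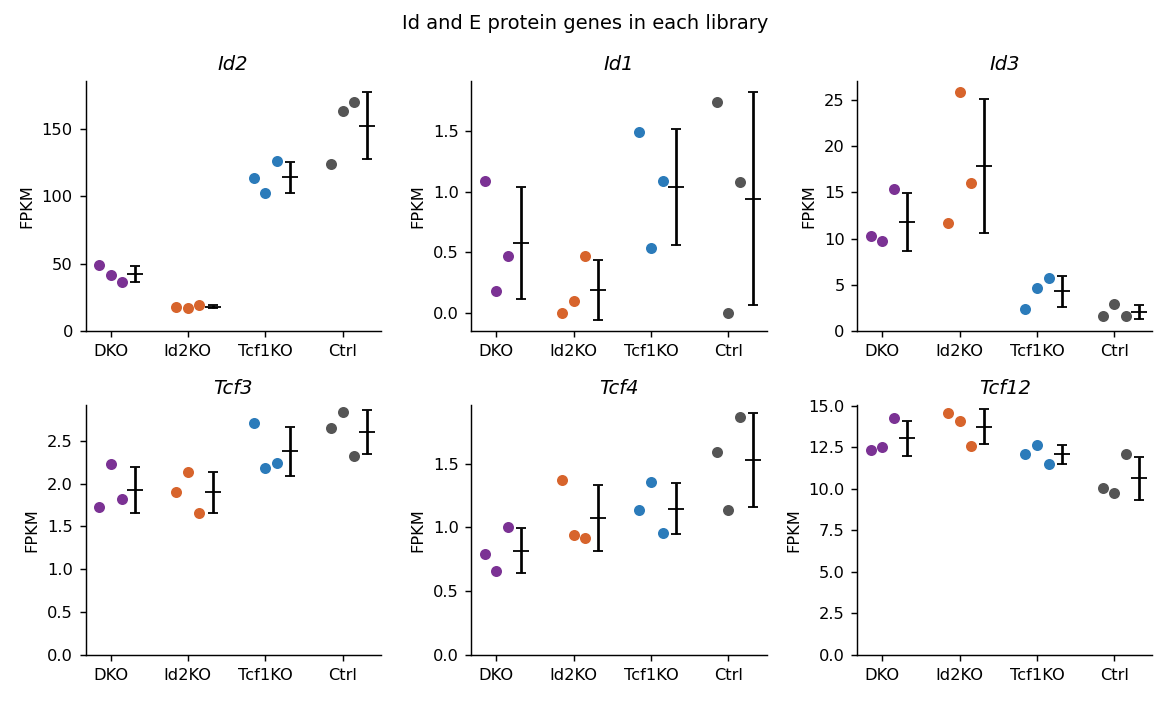
FPKM of the 6 genes in each library (points; from left to right DKO, Id2KO, Tcf1KO and Ctrl, 3 libraries each), with the group mean and SD as a bar beside the points. Id2 is at 17.1 to 48.8 FPKM in the 6 DKO and Id2KO libraries and at 102.5 to 170.0 FPKM in the 6 Tcf1KO and Ctrl libraries, and Id3 has the opposite order.

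Id3 was higher wherever Id2 was targeted. Id3 is the Id gene best known from developing and memory T cells and B cells, where it is induced by antigen receptor signals. The gene (ENSMUSG00000007872, chr4:136143497-136145755, plus strand, GRCm38) was at 10.3, 9.72 and 15.4 FPKM in DKO, 11.7, 25.8 and 16.0 in Id2KO, 2.45, 4.72 and 5.78 in Tcf1KO, against 1.7, 2.93 and 1.66 in Ctrl. All 6 DKO and Id2KO libraries lay above all 6 others, with a median of 13.5 FPKM (9.72 to 25.8) in DKO and Id2KO against 2.69 FPKM (1.66 to 5.78) in Tcf1KO and Ctrl. Group means were 11.8 ± 3.10 FPKM in DKO, 17.8 ± 7.24 in Id2KO, 4.32 ± 1.7 in Tcf1KO and 2.1 ± 0.73 in Ctrl (SD, n = 3 each), so the Ctrl mean was exceeded 5.64-fold in DKO, 8.51-fold in Id2KO and 2.06-fold in Tcf1KO.

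Id3 rose in Id2KO against Ctrl by 2.56 on the log2 scale (SE 0.33, limma adjusted p = 0.0102) and in DKO against Ctrl by 2.05 (SE 0.33, adjusted p = 0.0468), and its Id2 effect was 1.93 (SE 0.23, adjusted p = 0.00775). The difference of 1.30 in DKO against Tcf1KO (95% interval 0.57 to 2.02, adjusted p = 0.347) did not pass, although those libraries did not overlap. DKO and Id2KO overlapped and differed by -0.51 (interval -1.24 to 0.21, adjusted p = 0.609), as did Tcf1KO and Ctrl with 0.75 (interval 0.02 to 1.47, adjusted p = 0.999), and the interaction was -1.26 (interval -2.29 to -0.24, adjusted p = 0.831). The DKO against Ctrl call held in 2 of 12 fits that left out 1 library, with an adjusted p of up to 0.222 without DKO replicate 3, and was lost in the voom fit (adjusted p = 0.0877). The Id2KO against Ctrl call was lost only without Ctrl replicate 1 among those 12 fits (adjusted p = 0.0506), while the Id2 effect passed in all 12. With the neutrophil, erythroid and basophil marker level of each library as a term, an alternative chosen after the data were seen, the Id2 effect on Id3 was 1.79 with an adjusted p of 0.217, and on Id2 it was -2.16 with an adjusted p of 0.00155. The sum of 12 B lineage markers was 253 to 285 FPKM in DKO, 354 to 414 in Id2KO, 154 to 212 in Tcf1KO and 166 to 251 in Ctrl. Vpreb1, Vpreb3 and Igll1 were at 0 in every DKO library, Igll1 in every Id2KO library and Vpreb1 in every Ctrl library. The part of B and T cells in the Id3 values was not tested.

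Id1, which responds to BMP signals in many tissues, was close to the limit of detection. The gene (ENSMUSG00000042745, chr2:152736251-152737410, plus strand, GRCm38) was at 1.08, 0.18 and 0.47 FPKM in DKO, 0, 0.10 and 0.47 in Id2KO, 1.49, 0.54 and 1.09 in Tcf1KO, against 1.74, 0 and 1.08 in Ctrl. These values rest on 0 to 59 reads. A count of 0 was given an approximate upper limit of 3 reads, which is not a hard bound. This limit equals 0.101 FPKM in Id2KO replicate 1 and 0.102 FPKM in Ctrl replicate 2. Every pair of groups overlapped, and no comparison passed (Id2 effect -0.49, 95% interval -1.10 to 0.11, limma adjusted p = 0.569). The remaining Id gene, Id4, had 0 to 2 reads per library and was not tested. In the libraries without a read, the same approximate limit of 3 reads equals 0.0894 to 0.129 FPKM of Id4.

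Among the E protein genes, the libraries of both Id2-targeted groups lay above Ctrl for Tcf12 and below Ctrl for Tcf3, without any call. Tcf12 encodes HEB, which pairs with E2A in thymocytes. The gene (ENSMUSG00000032228, chr9:71842688-72111871, minus strand, GRCm38) was at 12.3, 12.5 and 14.2 FPKM in DKO, 14.6, 14.1 and 12.6 in Id2KO, 12.1, 12.6 and 11.5 in Tcf1KO, against 10.04, 9.75 and 12.1 in Ctrl. All DKO and all Id2KO libraries lay above all Ctrl libraries, while Tcf1KO overlapped each of the other groups. The differences were small and none passed. Tcf12 differed by 0.34 in Id2KO against Ctrl (95% interval 0.04 to 0.65, limma adjusted p = 0.426) and by 0.27 in DKO against Ctrl (interval -0.03 to 0.57, adjusted p = 0.574), and its Id2 effect was 0.22 (interval 0.01 to 0.44, adjusted p = 0.429).

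Tcf3 encodes the E2A proteins, the main E proteins of early B and T cells. The gene (ENSMUSG00000020167, chr10:80409514-80433647, minus strand, GRCm38) was at 1.73, 2.23 and 1.82 FPKM in DKO, 1.90, 2.14 and 1.66 in Id2KO, 2.71, 2.18 and 2.24 in Tcf1KO, against 2.64, 2.84 and 2.33 in Ctrl. All DKO and Id2KO libraries lay below all Ctrl libraries, by narrow margins. The difference was -0.31 in Id2KO against Ctrl (95% interval -0.68 to 0.05, limma adjusted p = 0.591) and -0.30 in DKO against Ctrl (interval -0.66 to 0.06, adjusted p = 0.618), and the Id2 effect was -0.26 (interval -0.52 to -0.003, adjusted p = 0.451). Tcf3 rested on 816 to 1425 reads per library. Its FPKM are low through a large divisor (given with the family sums), so the pseudocount weighs on the fold, and voom on reads gave an Id2 effect of -0.38 (adjusted p = 0.277).

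Tcf4 encodes E2-2, the E protein that specifies plasmacytoid dendritic cells. The gene (ENSMUSG00000053477, chr18:69343356-69689079, plus strand, GRCm38) was at 0.79, 0.66 and 1.01 FPKM in DKO, 1.37, 0.94 and 0.91 in Id2KO, 1.14, 1.35 and 0.95 in Tcf1KO, against 1.59, 1.13 and 1.87 in Ctrl. DKO libraries lay below Ctrl libraries, and every other pair of neighbouring groups overlapped. Its difference was -0.47 in DKO against Ctrl (95% interval -0.92 to -0.02, limma adjusted p = 0.511) and -0.28 in Id2KO against Ctrl (interval -0.73 to 0.17, adjusted p = 0.727). The voom fit to reads gave -0.92 in DKO against Ctrl (adjusted p = 0.263). The sum of 10 plasmacytoid dendritic cell markers was 32.0 to 52.4 FPKM in DKO, 34.2 to 48.4 in Id2KO, 20.4 to 25.9 in Tcf1KO and 20.03 to 29.3 in Ctrl. Of these, Cox6a2 alone was at 22.6 to 39.3 FPKM in DKO, 24.4 to 37.2 in Id2KO, 5.15 to 13.8 in Tcf1KO and 4.02 to 12.5 in Ctrl, and Irf8 at 5.41 to 7.92 in DKO, 4.49 to 8.66 in Id2KO, 6.65 to 9.92 in Tcf1KO and 8.87 to 11.4 in Ctrl. Klk1 and Cd209d were at 0 in every DKO library, and Cd209d was also at 0 in every Ctrl library. Siglech, a defining gene of these cells, was at 0 to 0.033 FPKM in DKO, 0.0048 to 0.226 in Id2KO, 0.168 to 0.514 in Tcf1KO and 0.247 to 0.577 in Ctrl, and the part of such cells in the Tcf4 values was not tested.

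**Figure D2:**
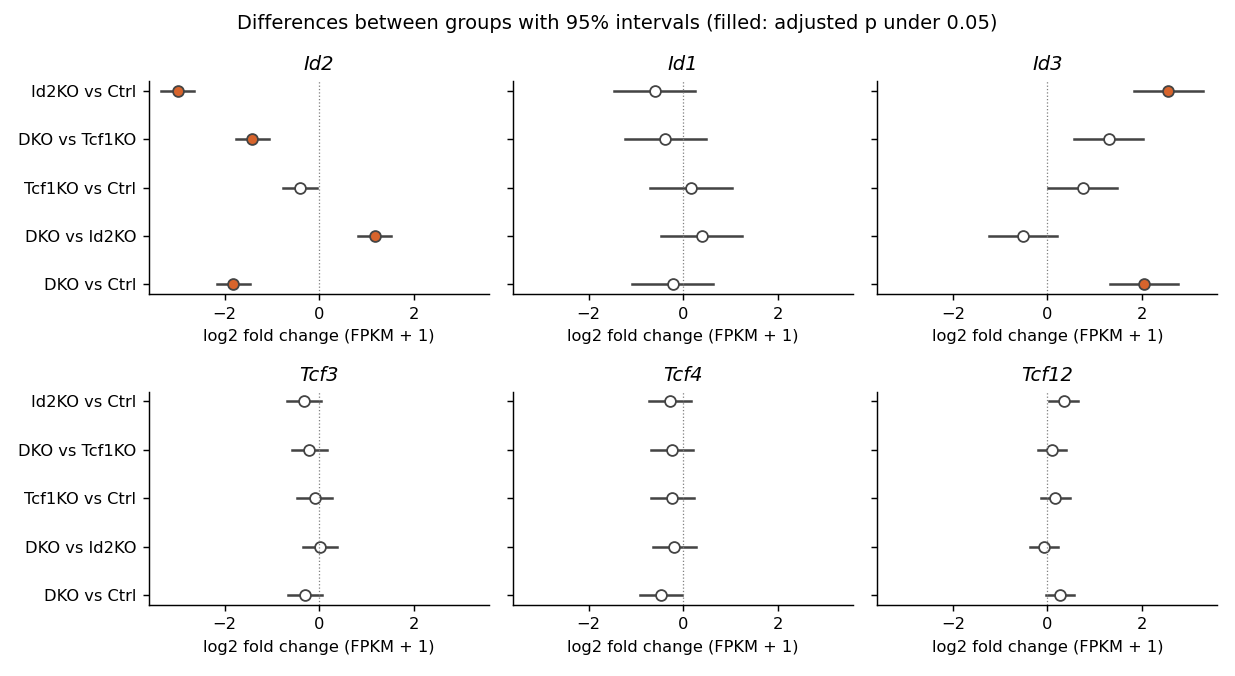
Differences between groups for each gene on the log2(FPKM + 1) scale (points, first group minus second, n = 3 each) with 95% intervals (lines). Filled points have a limma adjusted p under 0.05: 4 for Id2, 2 for Id3 and 0 for Id1, Tcf3, Tcf4 and Tcf12.

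Counted over the family, 2 of 6 genes (Id2 and Id3) passed in Id2KO against Ctrl, where 0.178% of all tested genes did. The libraries of these groups did not overlap for 4 of 6 genes, against 13.9% of all tested genes. Id2 is itself the gene targeted in Id2KO and DKO, so its fall against Ctrl or Tcf1KO follows from the design. Of the other members, only Id3 passed in any comparison. In DKO against Ctrl, 2 of 6 passed (0.145% of all genes) and 5 of 6 did not overlap (13.5% of all genes). The control libraries are the same in both comparisons. In DKO against Id2KO, Id2 alone passed (0.121% of all genes) and alone did not overlap (14.7% of all genes). In DKO against Tcf1KO, Id2 passed (0.0565% of all genes), and Id2 and Id3 did not overlap (12.6% of all genes).

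Over both Id2 comparisons together, 2 of 6 passed, Id3 and the targeted gene Id2 (0.299% of all genes). The same 2 were the only ones of the 6 whose 6 targeted and 6 other libraries did not overlap (0.896% of all genes). In Tcf1KO against Ctrl, 0 of 6 passed by limma on FPKM or by voom, with 2 at an unadjusted p under 0.05 (Id2 and Id3); 0% of all genes passed, and 0 of 6 did not overlap against 10.7% of all genes. For the interaction, 0 of 6 passed by limma or voom, with 2 at an unadjusted p under 0.05, and 0% of all genes passed. For the Tcf7 effect, the mean change in DKO against Id2KO and in Tcf1KO against Ctrl, 0 of 6 passed by limma or voom, with 1 (Id2, 0.39, adjusted p = 0.252) at an unadjusted p under 0.05. Of all genes 0.371% passed that test, and 0 of 6 had libraries that did not overlap, against 0.88% of all genes.

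Levels of different genes could not be set beside each other in the deposited FPKM. The length by which reads had been divided, worked out from FPKM and recovered reads, was 31.5 kb for Tcf3, whose gene spans 24.1 kb and whose merged exons cover 4.04 kb in GENCODE, and 2.09 kb for Id1, whose gene spans 1.16 kb. For Tcf3, Id1 and Id3 it equalled the exon lengths summed over all annotated transcripts (31.5, 2.09 and 2.29 kb), and it was 1.27 kb for Id2, 13.5 kb for Tcf12 and 38.8 kb for Tcf4. The divisor is the same in every library, so comparisons of 1 gene between libraries keep their ratios. For sums over genes, the recovered reads were divided by the merged exon length or by the longest transcript in GENCODE, scales chosen after the data were seen; the authors' own annotation may differ.

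On both scales the ratio of Id to E protein RNA was lower in every DKO and Id2KO library than in every Tcf1KO and Ctrl library. By merged exons Id2, the targeted gene, was at 64.4 to 88.6 of an Id sum of 69.7 to 92.6 in Ctrl. A lower ratio where Id2 was targeted thus follows largely from the design. Per kilobase of merged exons, the sum of Id2, Id1 and Id3 over the sum of Tcf3, Tcf4 and Tcf12 averaged 1.4 ± 0.22 in DKO, 1.15 ± 0.30 in Id2KO, 2.19 ± 0.36 in Tcf1KO and 2.64 ± 0.39 in Ctrl (SD, n = 3 each). DKO (1.17 to 1.605) overlapped Id2KO (0.824 to 1.39), and Tcf1KO (1.96 to 2.60) overlapped Ctrl (2.21 to 2.96). In sums of the deposited FPKM, the measure first planned, DKO and Id2KO did not overlap. By the longest transcript the ratio was 0.953 ± 0.12 in DKO, 0.810 ± 0.23 in Id2KO, 1.48 ± 0.25 in Tcf1KO and 1.8 ± 0.25 in Ctrl, with the same pairs overlapping. Whether Id RNA exceeded E protein RNA in the Id2-targeted groups thus depends on the length used. These are RNA levels, and protein was not measured here.

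The makeup of both sums differed between the groups. The share of Id3 in the Id sum rises with Id3 itself and also with the loss of the targeted Id2 from that sum. Per kilobase of merged exons, Id3 was 32.6% to 49.6% of the Id sum in DKO, 61.8% to 78.4% in Id2KO, 4.83% to 10.001% in Tcf1KO and 2.29% to 4.24% in Ctrl. By the longest transcript it was 35.7% to 52.9% in DKO, 64.6% to 80.5% in Id2KO, 5.47% to 11.2% in Tcf1KO and 2.60% to 4.77% in Ctrl. Against the Ctrl mean, the gain in mean Id3 equalled 21.7% of the loss in mean Id2 in DKO and 28.8% in Id2KO by merged exons, and 24.6% in DKO and 32.6% in Id2KO by the longest transcript.

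Tcf12 made up 37.2% to 44.2% of the E protein sum in DKO, 40.4% to 43.4% in Id2KO, 31.6% to 36.7% in Tcf1KO and 26.3% to 33.6% in Ctrl by merged exons. This share was higher in every DKO and Id2KO library than in every other library on both scales. Which E protein gene had the highest level depended on the scale. By merged exons Tcf3 was above Tcf12 in every library, by 1.15 to 2.62 times, while by the longest transcript Tcf3 was 0.638 to 0.889 times Tcf12 in DKO, 0.651 to 0.758 in Id2KO, 0.862 to 1.12 in Tcf1KO and 0.959 to 1.45 in Ctrl. As sums over chosen genes, none of these ratios and shares was tested.

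**Figure D3:**
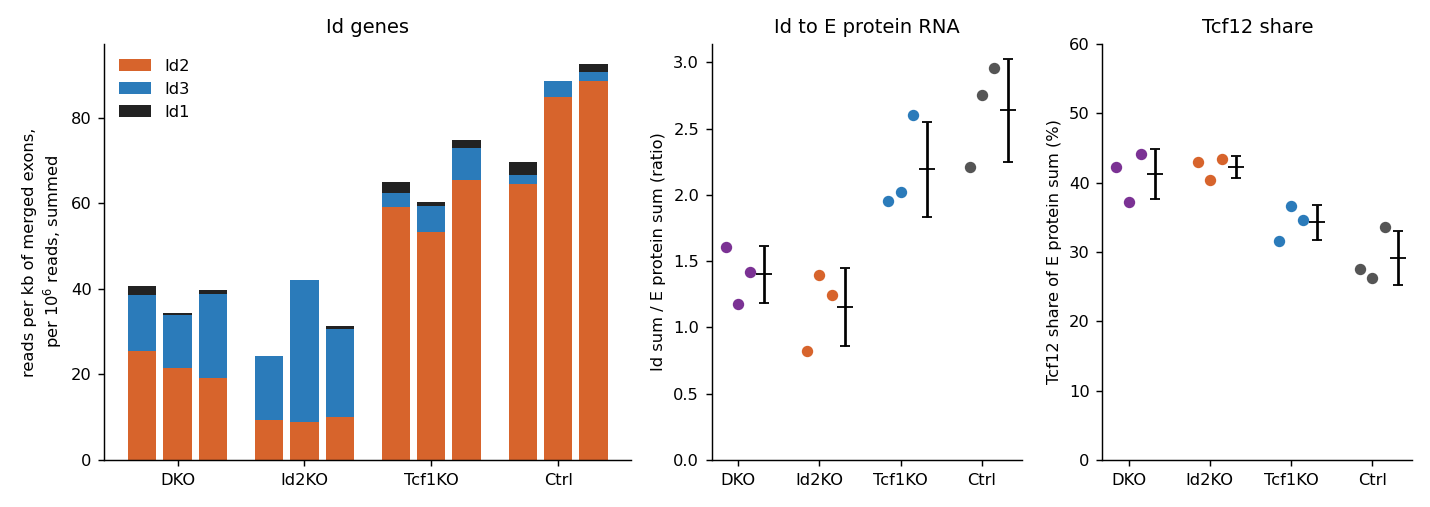
Left, reads per kilobase of merged exons, scaled to library depth, of Id2, Id3 and Id1 stacked for each library (DKO, Id2KO, Tcf1KO and Ctrl from left to right). Middle and right, the ratio of the Id sum to the E protein sum and the Tcf12 share of the E protein sum on that scale per library (points) with mean and SD (n = 3 each). The ratio is 0.824 to 1.39 in Id2KO and 2.21 to 2.96 in Ctrl.

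Across the 12 libraries, Id2 ran together with Tcf3 and opposite to Id3 and Tcf12. Pearson's r of log2(FPKM + 1) was -0.92 between Id2 and Id3, -0.76 between Id2 and Tcf12, 0.74 between Id2 and Tcf3, and 0.74 between Id3 and Tcf12. Tcf3 and Tcf12 had an r of -0.70. The 12 points share the 4 groups and their library depth, so these values describe the pattern only.

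The tested genes with the pattern most like each member, by Pearson's r over the same 12 libraries among 9893 named genes, differed between members. For Id2 they were Ehbp1l1 (r = 0.96), S1pr5 (0.96), the sphingosine phosphate receptor used by NK cells to leave the bone marrow, and Itgam (0.95), which encodes CD11b, a marker of mature NK cells. Itgam was at 4.29, 4.93 and 4.14 FPKM in DKO, 1.14, 1.65 and 1.0 in Id2KO, 10.7, 7.39 and 6.65 in Tcf1KO, against 9.69, 8.77 and 8.76 in Ctrl. The part of other cells, such as neutrophils, in the Itgam values was not tested. For Id3 they were the ribosomal protein gene Rps6 (0.95), Gramd3 (0.94) and Nsg2 (0.92). Nsg2 was at 18.3, 17.2 and 22.9 FPKM in DKO, 32.4, 38.5 and 29.2 in Id2KO, 11.1, 15.9 and 9.71 in Tcf1KO, against 6.8, 5.22 and 6.46 in Ctrl. For Tcf12 they were Lyst (0.91), a regulator of lysosomal granule size, Hnrnpa1 (0.90) and Thada (0.88), for Tcf3 the phosphatase gene Ptpre (0.91), Azi2 (0.88) and Spn (0.87), which encodes CD43, for Tcf4 the replicating cell genes Cenpm (0.91) and Dbf4 (0.89) and the phosphatase gene Ptpn12 (0.85), and for Id1 Zbtb16, Twsg1 and Mirt2 (0.85 to 0.86).

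The partners and cofactors of E proteins showed no call. Of 15 listed genes (Tal and Lyl factors, LMO and LDB adaptors, corepressors of the ETO family and acetyltransferases) 11 were tested, and 0 passed in any comparison by limma or by voom, with 0 to 2 per comparison at an unadjusted p under 0.05 (4.8% to 10.9% of all tested genes over the comparisons). Their median Id2 effect was -0.15, with 3 higher and 8 lower, beside a median of -0.0025 and 49.53% higher over all tested genes. Lmo4, a LIM-only adaptor, was at 2.65, 1.93 and 1.41 FPKM in DKO, 1.63, 1.15 and 1.51 in Id2KO, 6.37, 3.65 and 2.45 in Tcf1KO, against 3.34, 4.49 and 2.21 in Ctrl. All Id2KO libraries lay below all Ctrl libraries, but the Id2 effect of -0.77 did not pass (95% interval -1.24 to -0.31, limma adjusted p = 0.198). The Id2 effect on Cbfa2t3, an ETO family corepressor, was 0.43 (interval 0.07 to 0.79, adjusted p = 0.355).

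Among 27 other helix-loop-helix genes, 22 were tested, and 0 passed in any comparison by limma or by voom, with 1 to 4 per comparison at an unadjusted p under 0.05, 4 of them for the Id2 effect (10.9% of all tested genes). Their median Id2 effect was 0.058, with 13 higher and 9 lower. Hes1, a repressor induced by Notch, was at 6.96, 0.93 and 5.66 FPKM in DKO, 7.33, 8.58 and 10.8 in Id2KO, 0.42, 0.47 and 0.48 in Tcf1KO, against 1.27, 2.73 and 6.64 in Ctrl. Every DKO and Id2KO library lay above every Tcf1KO library, while DKO overlapped Ctrl (Id2 effect 1.48, interval 0.67 to 2.30, adjusted p = 0.153). Ahr, the aryl hydrocarbon receptor, was at 1.5, 1.87 and 2.07 FPKM in DKO, 4.59, 4.79 and 5.03 in Id2KO, 1.03, 2.07 and 1.14 in Tcf1KO, against 1.79, 0.94 and 2.28 in Ctrl. Id2KO libraries were thus the high ones (Id2 effect 0.70, interval 0.33 to 1.06, adjusted p = 0.134).

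Of the genes known as E protein targets in B and T cells, few passed the test. Of 38 listed genes 28 were tested, and for the Id2 effect 2 passed, both higher (0.299% of all tested genes passed in either direction). By voom 2 passed for the Id2 effect. Over the comparisons, 3 to 12 of the 28 had an unadjusted p under 0.05, where 4.8% to 10.9% of all tested genes did. The 12 were for the Id2 effect (10.9% of all tested genes). Of these, Cxcr5, Hes1, Il2ra, Tcf7, Ccr7, Cd3d, Socs1, Foxo1 and Cd3g were higher, and Runx1, Zbtb16 and Bcl6 were lower. For the Id2 effect, 17 of the 28 were higher and 11 lower, where 49.53% of all tested genes were higher, with a median of 0.043 beside -0.0025 over all tested genes. Cxcr5, the chemokine receptor of B cell follicles, was at 5.98, 2.54 and 4.16 FPKM in DKO, 6.91, 4.29 and 5.41 in Id2KO, 0.65, 1.28 and 1.29 in Tcf1KO, against 0.52, 0.60 and 1.8 in Ctrl. All 6 Id2-targeted libraries lay above the others, and the Id2 effect was 1.53 (SE 0.22, limma adjusted p = 0.0231). That call held in 5 of 12 fits that left out 1 library (highest adjusted p = 0.0661, without Tcf1KO replicate 1), and was lost without a filter (adjusted p = 0.0675) and with a filter of 5 FPKM (adjusted p = 0.0605). Tcf7, whose levels are given above, had an Id2 effect of 0.93 (SE 0.11, adjusted p = 0.00775) and was 1.04 higher in Id2KO than in Ctrl (SE 0.16, adjusted p = 0.0279), a call that held in 4 of 12 such fits (highest adjusted p = 0.13, without Id2KO replicate 2).

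The other calls on that list were both CD3 chains. Cd3d was at 56.6, 56.6 and 50.03 FPKM in DKO, 67.2, 103.3 and 61.5 in Id2KO, 51.6, 70.6 and 68.3 in Tcf1KO, against 29.8, 27.96 and 26.6 in Ctrl. All 3 targeted groups lay above Ctrl, and Cd3d was 1.39 higher in Id2KO than in Ctrl (SE 0.20, limma adjusted p = 0.0183), a call lost in 4 of 12 fits without 1 library (highest adjusted p = 0.0746, without Ctrl replicate 2). Cd3e was at 351, 414 and 416 FPKM in DKO, 85.8, 110.8 and 218 in Id2KO, 320, 386 and 419 in Tcf1KO, against 147, 139 and 111 in Ctrl. It was high wherever Tcf7 was targeted, with a Tcf7 effect of 1.55 (SE 0.20, adjusted p = 0.0163), held in 8 of 12 such fits (highest adjusted p = 0.065, without Ctrl replicate 3), and an Id2 effect of 0.016 (interval -0.42 to 0.46, adjusted p = 0.987). The T cell marker sums given above include Cd3d and Cd3e, so they are no separate measure of T cells. Those sums were above Ctrl in all 3 targeted groups, but not every marker was. In Id2KO, Cd3d, Cd3g, Trbc1 and Trbc2 lay above Ctrl, while Cd3e, Trac, Cd4, Cd8a, Cd8b1 and Cd5 overlapped it. In Tcf1KO, Cd3d, Cd3e, Cd3g, Trac, Trbc2, Cd8a and Cd5 lay above Ctrl, and Cd4 and Cd8b1 overlapped it. Trbc1 lay below Ctrl there, at 246 to 316 FPKM against 318 to 447. The part of T cells in the Cd3d and Cd3e values was not tested. Of the B cell genes on the list, Ebf1 and Pax5 were at 0 to 0.282 FPKM over all 12 libraries.

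**Figure D4:**
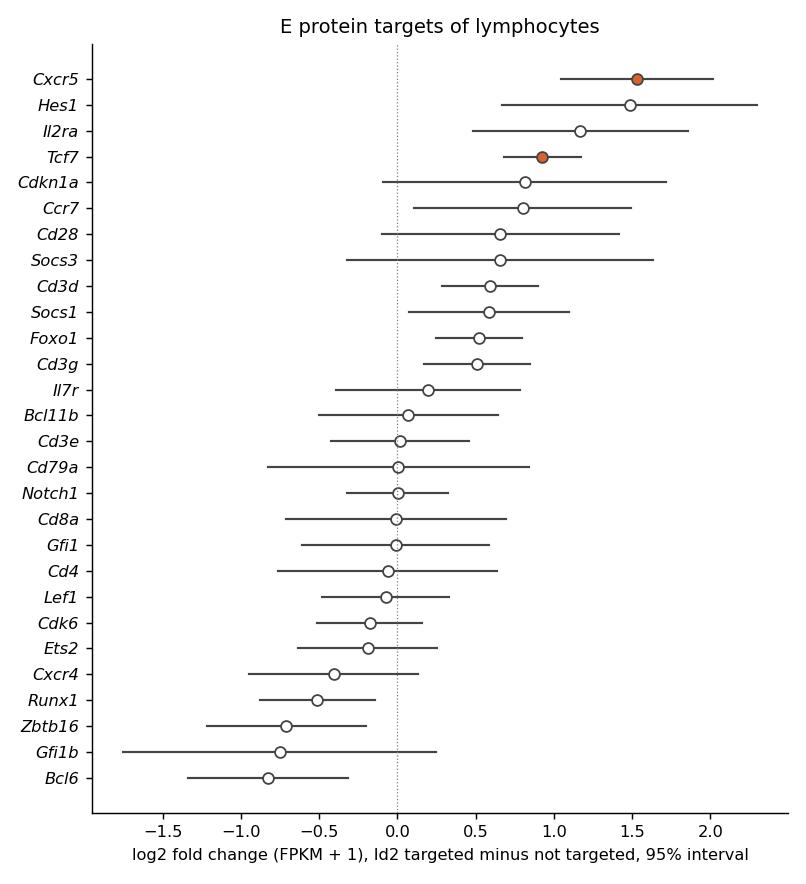
Id2 effect on the 28 tested E protein target genes on the log2(FPKM + 1) scale, 6 libraries with targeted Id2 minus 6 without (points) with 95% intervals (lines), sorted by size. Filled points, Cxcr5 at 1.53 and Tcf7 at 0.93, have a limma adjusted p under 0.05, and values run down to -0.83 for Bcl6.

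Of 26 regulators known to act on Id genes (NK lineage factors, SMADs with their receptors, EGR factors, and IL-2 receptor chains with STATs) 23 were tested. For the Id2 effect 0 passed by limma or voom, with 4 at an unadjusted p under 0.05 (10.9% of all tested genes), and the median was -0.021. For the Tcf7 effect 1 passed (0.371% of all tested genes), lower: Eomes, the T-box factor of mature NK cells, at 24.4, 25.6 and 27.1 FPKM in DKO, 46.6, 43.0 and 29.9 in Id2KO, 28.5, 25.1 and 26.4 in Tcf1KO, against 45.4, 42.1 and 54.4 in Ctrl. All 6 libraries with targeted Tcf7 lay below the others (Tcf7 effect -0.69, SE 0.12, limma adjusted p = 0.0454). That call held in 1 of 12 fits that left out 1 library (highest adjusted p = 0.143, without Id2KO replicate 2).

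E boxes in the promoters of the members themselves are shown because E proteins bind such motifs. RefSeq windows (GRCm38.p6, from 250 bases before to 50 after a transcription start) were at hand for Id2, Id3, Tcf3 and Tcf12 and were searched for CANNTG, which matches itself on both strands. The sites read 5′ to 3′ on the gene's strand, with 9 bases on each side and the E box in capitals:
Id2, chr12:25096274-25096297, minus strand: ttgccacccCAGCTGggctctcgc
Tcf12, chr9:72112045-72112068, minus strand: gatgctgccCAGCTGcgtccccgt
Tcf3, chr10:80433675-80433698, minus strand: gggcgtggtCACTTGggggcgtgg
The Id2 window and the first Tcf12 window each held 1 E box, in both cases CAGCTG, at position -196 from the transcription start in Id2 and -240 in Tcf12. The Tcf3 window held 1, the other Tcf12 windows 2 and 1, and the Id3 window 0. Of 32851 mouse promoter windows, 72.3% held at least 1 CANNTG and 16.3% at least 1 CAGCTG. Binding was not measured, and a match describes letters only.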

How the data were processed

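RNA of sorted bone marrow NK cells was sequenced as 12 libraries (3 per genotype). The deposited table holds FPKM values per Ensembl gene made by the authors. Per the submitters' processing notes, the tools were HTSeq 0.6.1, TopHat2 2.1.0, Trimmomatic 0.33 and edgeR, on build mm10, and their roles are not stated. Names and positions came from GENCODE (GRCm38), which named 32919 of 37991 genes. FPKM values of all 23707 genes above 0 were whole multiples of 1 read (within 0.001 reads), which gave reads per library and the length behind each gene's FPKM, which for some genes exceeded the gene. Sums over genes had been planned in FPKM, and are given as reads per kilobase of merged exons or of the longest transcript instead. Intervals and limits from reads cover counting error only.

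Values were tested as log2(FPKM + 1), for genes at 1 FPKM or more in at least 3 libraries, with limma 3.58.1 (trend, group as the only term) in R 4.3.3 and Benjamini-Hochberg adjustment at 0.05. Code was tested on simulated data. Alternatives were median scaling, a filter of 5 FPKM or none, a pseudocount of 0.1 or 0.5, the replicate number as a block, only the groups compared, voom on recovered reads, and leaving out each library. After the data were seen, a fit without the 3 libraries of lowest array weight and one with a neutrophil, erythroid and basophil marker score were added. The members and gene lists were chosen with earlier results of these data known. Named from each list were genes with an adjusted p under 0.05 in any comparison, or otherwise the 2 of smallest p for the Id2 effect, and, for each member, the 3 genes of highest r.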

Additional observations from a re-analysis of the deposited data

How the results depend on the processing

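Of 1014 values of the 6 genes under all alternatives, 956 kept direction and side of the threshold, 41 lost the call and 17 changed sign. Most of the 1014 belong to comparisons without a call in the main fit, so they had no call to lose. Among the calls, Id3 in DKO against Ctrl held in 2 of 12 fits that left out 1 library. Id2 held in 8 of 12 in DKO against Id2KO and in 7 of 12 in DKO against Tcf1KO. Id3 in Id2KO against Ctrl held in 11 of 12, and the other calls in all 12. The calls of Id2 in Id2KO against Ctrl and of the Id2 effect on Id2 held under every alternative run for each (the Id2 effect has no fit to only the groups compared), from -3.14 to -2.91 and from -2.28 to -2.16 when 1 library was left out. Without a filter, 1 member passed in DKO against Ctrl, and gene counts were 1 in Tcf1KO against Ctrl, 4 in DKO against Ctrl, 4 in DKO against Tcf1KO, 13 for the Id2 effect and 20 for the Tcf7 effect, where Eomes had an adjusted p of 0.0779. With a filter of 5 FPKM, 8 genes passed in DKO against Id2KO and 4 in DKO against Tcf1KO. A pseudocount of 0.1 left 1 member in DKO against Ctrl and 4 genes in DKO against Tcf1KO. Under median scaling 0 members passed in DKO against Id2KO (Id2 adjusted p = 0.0543), and the Tcf3 difference there was -0.019.

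Fits to only the 2 groups compared, with fewer samples to estimate the spread, left 1 member and 2 genes in Id2KO against Ctrl, 0 members and 1 gene in DKO against Ctrl, 0 and 0 in DKO against Id2KO, 0 and 1 in DKO against Tcf1KO, and 1 gene in Tcf1KO against Ctrl, and the Id2KO against Ctrl calls of Tcf7 (adjusted p = 0.195) and Cd3d (0.212) were lost. The voom fit gave 1 member in DKO against Ctrl and 0 in DKO against Id2KO, with 2 genes in Tcf1KO against Ctrl, 2 in DKO against Tcf1KO and 71 for the Id2 effect; Id1 was there 0.48 in DKO against Ctrl. Correlations of deviations between libraries of the same replicate number ran from -0.14 to 0.27. Libraries of different numbers were not set beside them, so whether the numbers pair the samples was not settled. With a replicate block in the limma fit, 0 members passed in DKO against Id2KO (Id2 adjusted p = 0.0534). In that fit 15 genes passed in DKO against Tcf1KO and 28 for the Tcf7 effect, where Eomes had an adjusted p of 0.0875.

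Without the 3 libraries of lowest array weight (DKO 3, Id2KO 3 and Ctrl 2), chosen after the data were seen, 1 member and 8 genes passed in Id2KO against Ctrl, 0 and 0 in DKO against Ctrl, 0 members in DKO against Id2KO, 0 members and 2 genes in DKO against Tcf1KO, 4 genes in Tcf1KO against Ctrl, and 1 member and 6 genes for the Id2 effect (Id3 1.95, adjusted p = 0.0756). The Id2 effects on Tcf7 (adjusted p = 0.0756) and Cxcr5 (0.15) and the Id2KO against Ctrl calls of Tcf7 (0.123) and Cd3d (0.0970) were also lost. Signs turned there for Id1 in Tcf1KO against Ctrl (-0.26), Tcf3 in DKO against Id2KO (-0.023) and the Tcf7 effect on Tcf12 (-0.036). With the other-lineage marker score as a term, also chosen after the data were seen, 1 member and 10 genes passed in Id2KO against Ctrl (Id3 adjusted p = 0.199), 1 and 7 in DKO against Ctrl, 0 and 5 in DKO against Id2KO, and 1 and 3 for the Id2 effect, and Tcf12 was 0.0049 in DKO against Id2KO. In that fit the calls of Cd3d (adjusted p = 0.255), Cxcr5 (0.356), Eomes (0.0597) and Tcf7 (0.318 in Id2KO against Ctrl, 0.217 for the Id2 effect) were lost. The cause of these changes was not tested.

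Leaving out 1 library at a time, members called ranged from 1 to 2 in Id2KO against Ctrl, 1 to 2 in DKO against Ctrl, 0 to 1 in DKO against Id2KO and 0 to 1 in DKO against Tcf1KO, and stayed at 2 for the Id2 effect. Genes called ranged from 13 to 27, 1 to 27 (1 without DKO replicate 3), 2 to 31 (2 without Id2KO replicate 2) and 0 to 7 (0 without DKO replicate 3) in those 4 comparisons, 0 to 3 in Tcf1KO against Ctrl, 0 to 1 for the interaction, 13 (without Tcf1KO replicate 1) to 79 for the Id2 effect and 5 (without Id2KO replicate 2) to 69 for the Tcf7 effect. Signs changed for Id1 in DKO against Ctrl (-0.64 to 0.089), in Tcf1KO against Ctrl (-0.26 to 0.47) and in the interaction (-0.084 to 0.64), for Tcf3 in DKO against Id2KO (-0.060 to 0.072), for Tcf4 in the interaction (-0.054 to 0.16) and for the Tcf7 effect on Id3 (-0.0070 to 0.26). Depth limits Id1 most, with at most 59 reads, and 3 libraries per group limit all differences near the threshold.

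The ratio of Id to E protein sums in deposited FPKM was 3.49 in DKO, 2.17 in Id2KO, 7.69 in Tcf1KO and 10.5 in Ctrl. It moved to 1.4, 1.155, 2.19 and 2.64 in the same groups by reads per kilobase of merged exons and to 0.953, 0.810, 1.48 and 1.8 by the longest transcript, since the divisors differ between genes. In deposited FPKM, DKO (3.08 to 4.06) did not overlap Id2KO (1.65 to 2.51), a separation that was lost on both other scales.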
